A study of Mus musculus with 12 samples.

Results

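miR-320, miR-484, miR-877, miR-1224 and miR-702 are 5 of the 1087 miRNA names annotated in the mouse genome, and they have in common that their precursors are known to be made without Drosha. They were counted in 12 small RNA libraries of mouse hippocampus. A sequenced tag was given to a member when all of its bases matched the annotated hairpin exactly. Of 30022027 reads that matched any miRNA hairpin in this way, 61437 came from miR-320, 16870 from miR-1224, 140 from miR-484, 44 from miR-877 and 1 from miR-702. These members were chosen by earlier results of the same libraries as well as by their biogenesis, since the 3′ arm of miR-320 was already known to differ widely between the libraries. The contrast between the replicate series is therefore given as a description and carries no test.

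Each library held hippocampal RNA of 1 male C57BL/6NCrl mouse, 6 to 8 weeks old, cut from a gel at about the length of a mature miRNA. The mice were untreated (NT) or were taken 0.5, 1, 3, 6 or 24 h after electroconvulsive shock (ECS), a current that makes neurons throughout the brain fire together. The untreated mice came from their home cage, and no sham-shocked group is among the labels. There were 2 libraries per group, labelled replicate 1 and replicate 2, and the replicate number was treated as a batch in the study. The 6 libraries with the same number are called time course 1 or time course 2 here, and a library is named by its group and that number, for example NT-1. The libraries held 1897490 to 7657222 accepted reads, of which 439336 (6h-1) to 4282006 (NT-2) matched a miRNA hairpin. Reads of 18 to 19 nt made up 51.4% of the miRNA reads of NT-1, 4.54 to 16.9% in the other libraries of time course 1 and 0.911 to 3.78% in time course 2, so NT-1 stood apart. The neuronal miRNAs miR-124, miR-128 and miR-9 together were at 58212 to 303239 RPM, that is reads per 1000000 miRNA reads of the library. The whole hippocampus was sampled, and fewer cells of a type cannot be told apart from less RNA per cell.

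Most miRNAs are cut out of a long primary transcript by the nuclear enzyme Drosha, and the resulting hairpin is then cut by Dicer. The members bypass Drosha in different ways. The precursors of miR-320 and miR-484 begin at a transcription start and carry the cap of an RNA polymerase II transcript, so that the hairpin is itself the primary transcript. Mirtrons, here miR-877, miR-1224 and miR-702, are short introns that the splicing machinery releases and that fold into a hairpin once the lariat is opened, so that the 5′ end of their 5′ arm is fixed by the splice donor. Both kinds of hairpin are then cut by Dicer. The guide strand pairs with its target mRNAs mainly through the seed, bases 2 to 8 from its 5′ end.

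The leading tag of each arm that yielded reads shows which strand and which seed the hippocampus libraries held. The tags are written 5′ to 3′ as the sequenced DNA letters, with the seed in capitals.
miR-320 3p: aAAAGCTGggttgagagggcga
miR-484 5p: tCAGGCTCagtcccctcccgat
miR-877 5p: gTAGAGGAgatggcgcaggg
miR-877 3p: tGTCCTCTtctccctcctccca
miR-1224 5p: gTGAGGACtggggaggtgga
miR-702 5p: gTGAGTGGggtggttggcat
The 6 seeds all differed, so that no 2 of these arms belong to 1 seed family. Among the mature miRNAs in the RefSeq table (GRCm38.p6), the seed of miR-702 5p is shared by mmu-miR-3102-5p, itself from a hairpin that is a whole intron, and the seeds of the other 5 tags are shared by no other miRNA. RefSeq held entries for 4 of the 5 members, all but miR-320. The leading tags of miR-484, miR-877 5p and miR-877 3p were identical to the RefSeq mature sequence. For miR-1224 5p and miR-702 5p the RefSeq sequence had the same start and was 21 nt long, against 20 nt for the leading tag. Each of the 6 leading tags matched the hairpin of its own gene and no other annotated transcript.

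The annotation (GRCm38) places the genes of miR-320 and miR-484 close to the start of a coding gene on the other strand, and those of the mirtrons at introns. Mir320, at chr14:70443510-70443591 on the plus strand, lies inside no annotated transcript and 63 nt from the start of Polr3d, which encodes a subunit of RNA polymerase III and is read from the other strand. Mir484, at chr16:14159626-14159692 on the plus strand, lies 359 nt from the start of Marf1, within that gene but on the opposite strand. Mir1224, at chr16:20604452-20604536 on the plus strand, has exactly the ends of an intron of 85 nt in Vwa5b2. Mir877, at chr17:35960730-35960814 on the minus strand, has exactly the ends of intron 12 of Abcf1, also 85 nt long. Abcf1 encodes a translation factor of the ABC protein family. Mir702, at chr5:136991433-136991541 on the plus strand, overlaps intron 13 of Plod3, which encodes a collagen lysyl hydroxylase. That intron is 102 nt long, and the annotated hairpin begins 9 nt before it. Mir702 also lies 83 nt from the start of another Plod3 transcript, on the same strand.

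In these libraries each member was seen almost wholly as 1 arm. All 61437 reads of miR-320 came from the 3′ arm, and all 16870 reads of miR-1224, all 140 of miR-484 and the 1 read of miR-702 came from the 5′ arm. miR-877 was the exception, with 39 reads from the 5′ arm and 5 from the 3′ arm. With no read from the 5′ arm of miR-320 or the 3′ arms of miR-484, miR-1224 and miR-702, a level of up to 0.701 (NT-2) to 6.83 (6h-1) RPM remains possible for each in a single library, taking 3 counts as the limit. These limits, like all intervals given here, cover counting error only, since the reads carried no molecular identifiers. They hold only for ends that the library method can clone, and whether it clones the capped 5′ end of miR-320 was not tested.

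miR-320 3p was the most counted of these arms and ranged from 75.3 to 4029 RPM between the libraries. It stood at 120 RPM in NT-1, 563 in 0.5h-1, 233 in 1h-1, 75.3 in 3h-1, 159 in 6h-1 and 563 in 24h-1. Time course 2 held 895 in NT-2, 3727 in 0.5h-2, 4029 in 1h-2, 3891 in 3h-2, 171 in 6h-2 and 1959 in 24h-2. Library 6h-2 thus fell among the libraries of time course 1, and the other 5 of time course 2 lay above all 6 of time course 1. Library 6h-2 also held the fewest accepted reads of all, 1897490. The pair at 6 h was the closest, with 159 (95% Wilson interval 126 to 201) and 171 (150 to 195) RPM, while the pair at 3 h was 51.7-fold apart.

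miR-1224 5p, the most counted of the 3 mirtrons, went the other way between the time courses. The level was 104 RPM in NT-1, 1053 in 0.5h-1, 1201 in 1h-1, 2222 in 3h-1, 715 in 6h-1 and 1196 in 24h-1. In the other time course it was 556 in NT-2, 412 in 0.5h-2, 340 in 1h-2, 202 in 3h-2, 59.8 in 6h-2 and 179 in 24h-2. In RPM, all 5 ECS libraries of time course 1 lay above all 6 libraries of time course 2. NT-1 lay below all others of its own time course. At each of the 5 times after ECS the level was higher in time course 1, by 2.55-fold at 0.5 h to 11.96-fold at 6 h. The untreated pair was 5.35-fold apart in the other direction. The full separation of the ECS libraries of time course 1 depended on the scale. With the TMM scaling of the fits below, 6h-1 (510 CPM) lay below NT-2 (610 CPM). Relative to accepted reads, 0.5h-1, 1h-1 and 6h-1 lay below NT-2, and 6h-1 also lay below 0.5h-2, 1h-2, 3h-2 and 24h-2.

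**Figure D1:**
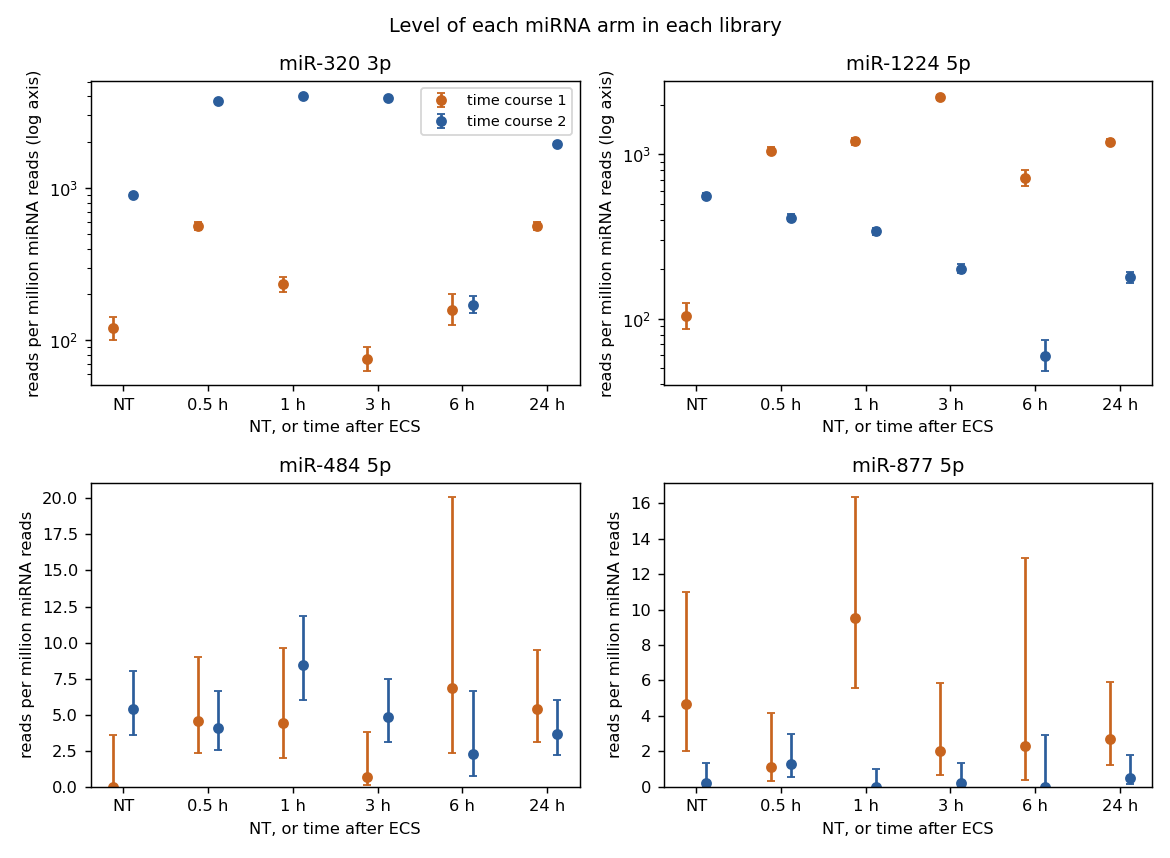
Level of each arm in RPM, reads per 1000000 miRNA reads (vertical axes, logarithmic for miR-320 3p and miR-1224 5p and linear for miR-484 5p and miR-877 5p) in each of the 12 libraries, by group on the horizontal axis. Each point is 1 library of 1 mouse, the bar is its 95% Wilson interval for counting error, and the colour gives the time course. miR-320 3p is higher in time course 2 in all 6 pairs, and miR-1224 5p is higher in time course 1 in all pairs but NT.

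miR-484 5p and miR-877 5p were near the limit of these libraries. miR-484 5p had 0 counts in NT-1 and 1 to 33 counts in the other 11 libraries. Its level was 0 RPM in NT-1, 4.56 in 0.5h-1, 4.41 in 1h-1, 0.666 in 3h-1, 6.83 in 6h-1 and 5.41 in 24h-1. The levels in time course 2 were 5.37 in NT-2, 4.11 in 0.5h-2, 8.41 in 1h-2, 4.82 in 3h-2, 2.27 in 6h-2 and 3.65 in 24h-2. The 2 time courses overlapped, and their means of 3.64 ± 2.71 and 4.77 ± 2.08 RPM (SD, n = 6 each) differed by less than the spread within either. The 0 in NT-1 allows up to 2.81 RPM. Counting error alone spans 2.32 to 20.1 RPM for the 3 reads of 6h-1, the highest level.

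miR-877 5p was read in 10 of the 12 libraries, with 1 to 13 counts in each. Its level in time course 1 was 4.68 RPM in NT-1, 1.14 in 0.5h-1, 9.55 in 1h-1, 2.00 in 3h-1, 2.28 in 6h-1 and 2.70 in 24h-1. The corresponding levels of time course 2 were 0.234 in NT-2, 1.28 in 0.5h-2, 0 in 1h-2, 0.241 in 3h-2, 0 in 6h-2 and 0.487 in 24h-2. The pooled level was 3.60 RPM over the 30 reads of time course 1 and 0.415 over the 9 reads of time course 2. The 0.5 h pair was the only one with the higher level in time course 2. The exact match kept 60.0% of the miR-877 5p reads of time course 1 whose first bases matched the hairpin. In time course 2 it kept 24.3% of such reads, so the size of the gap depends on the matching rule. All 5 reads of miR-877 3p came from time course 2, with 2 in 0.5h-2, 2 in 1h-2 and 1 in 3h-2. The 1 read of miR-702 5p was in library 1h-2.

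In a fit over all miRNA arms with time as a covariate (edgeR with TMM scaling), the log2 difference of time course 2 over time course 1 was 3.49 (SE 0.69) for miR-320 3p, 1.23 (SE 0.78) for miR-484 5p and -1.40 (SE 0.76) for miR-1224 5p. The median over the 469 arms was 0.29, and miR-320 3p held rank 17 from the highest and miR-1224 5p rank 391. With reads matched by their first 18 bases the difference of miR-1224 5p was -0.78 (SE 0.72). These are descriptions, since this contrast led to the choice of members. Marker miRNAs of neurons and blood cells also tended to differ between the time courses, but only the red blood cell ranges did not overlap. The summed level of the neuronal miRNAs was 122795 to 303239 RPM (median 172274) in time course 1 and 58212 to 163940 (median 91743) in time course 2, where all libraries but 6h-2 lay below all of time course 1. The summed level of the red blood cell miRNAs miR-451a, miR-144 and miR-486 was 332 to 1992 RPM in time course 1 and 168 to 259 in time course 2, and that of the myeloid miRNAs miR-223, miR-142 and miR-142b was 994 to 9790 against 158 to 2317. The myeloid ranges overlapped, since 6h-2 (2317) lay above 24h-1 (994). All 3 of the red blood cell list but 1 of the 3 of the myeloid list were above 0 in every library. The oligodendrocyte miRNAs miR-219a, miR-219b and miR-338 (2728 to 13952 RPM and 3922 to 18208 RPM), endothelial miR-126a (143 to 364 and 102 to 249) and choroid plexus miR-204 (15.3 to 71.2 and 25.7 to 347) also overlapped between the time courses. Their part in the levels of miR-320 and miR-1224 was not tested.

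The question behind the design was whether the firing that ECS sets off alters miRNA levels. Neither capped miR-320 and miR-484 nor the mirtron miR-1224 passed the test at any time. miR-877 and miR-702 failed the filter of at least 10 counts in at least 2 libraries, which left 3 member arms of 469 arms in all. With edgeR (quasi-likelihood F test, p adjusted by Benjamini-Hochberg), 0 of the 3 member arms were called at an adjusted p under 0.05 at 0.5, 1, 3, 6 or 24 h or in the mean of the 5 times, and the share of all 469 arms called was 0% in each of these 6 comparisons. At an unadjusted p under 0.05 this fit, which leaves out the time course, had 2 to 10 arms at the single times and 24 in the mean of the 5 times. Of these 0 were member arms. DESeq2 also called 0 of the 3 member arms, and of all arms it called 1 at 0.5 h, 2 at 3 h and 1 in the mean of the 5 times. Unadjusted p was not counted with the time course as a replicate block. DESeq2 with that block, chosen after seeing the data, gave miR-320 3p log2 fold changes of 2.26 at 0.5 h, 1.55 at 1 h and 1.74 at 3 h. They were -0.25 at 6 h and 2.13 at 24 h (each SE 0.93), with 1.49 (SE 0.72) for the mean.

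The fitted folds of the members were wide. For miR-320 3p the log2 fold change against NT was 2.03 (SE 1.88) at 0.5 h, 1.98 (SE 1.88) at 1 h and 2.48 (SE 1.92) at 3 h. It was -1.49 (SE 1.86) at 6 h and 1.64 (SE 1.86) at 24 h, with 1.33 (SE 1.56) for the mean of the 5 times. For miR-1224 5p the values ran from -0.18 (SE 1.37) at 6 h to 2.10 (SE 1.43) at 3 h, with 0.92 (SE 1.14) for the mean. The folds of miR-484 5p ran from 0.40 (SE 1.52) at 0.5 h to 0.80 (SE 1.51) at 1 h, with 0.56 (SE 1.22) for the mean, and rest on few counts. The median of all arms in the mean of the 5 times was 0.13. In this fit, which leaves out the time course, leaving out 1 library turned the sign of the miR-320 3p fold at each time. The groups then held the time courses unevenly, and the gap between them was not separated from a change after ECS. Against NT of the same time course, its RPM was higher in both at 0.5, 1 and 24 h. At 3 and 6 h the 2 time courses differed in direction. The fitted fold was -0.10 at 0.5 h without 0.5h-2, -1.59 at 1 h without 1h-2, -2.72 at 3 h without 3h-2 and -0.0043 at 24 h without 24h-2, and at 6 h it was 1.24 without NT-2. The miR-320 3p mean over the 5 times stayed positive, from 0.35 (SE 1.21) without 3h-2 to 4.06 (SE 2.62) without NT-2, with 0.47 (SE 1.94) without NT-1. For miR-1224 5p the mean was 0.12 (SE 1.37) without NT-1 and 3.21 (SE 1.79) without NT-2. The mean fold of miR-484 5p turned to -0.32 (SE 1.23) without NT-1, and its fold was then negative at all 5 times, from -0.49 to -0.09. Without NT-2 the only untreated library left has 0 counts of miR-484, and the fitted 6.37 (SE 2.78) then depends on the prior count and is no bound. The adjusted p of the 3 arms lay between 0.988 and 1.00 in the edgeR fit with all 12 libraries. With the time course as a replicate block the SE of miR-320 3p fell to 1.03 to 1.06 at the single times. Its fold was then between 1.54 and 2.32 at every time but 6 h, where it was -0.31. The blocked mean of the 5 times was 1.54 (SE 0.88) for miR-320 3p and 0.04 (SE 0.96) for miR-1224 5p, and no call changed.

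**Figure D2:**
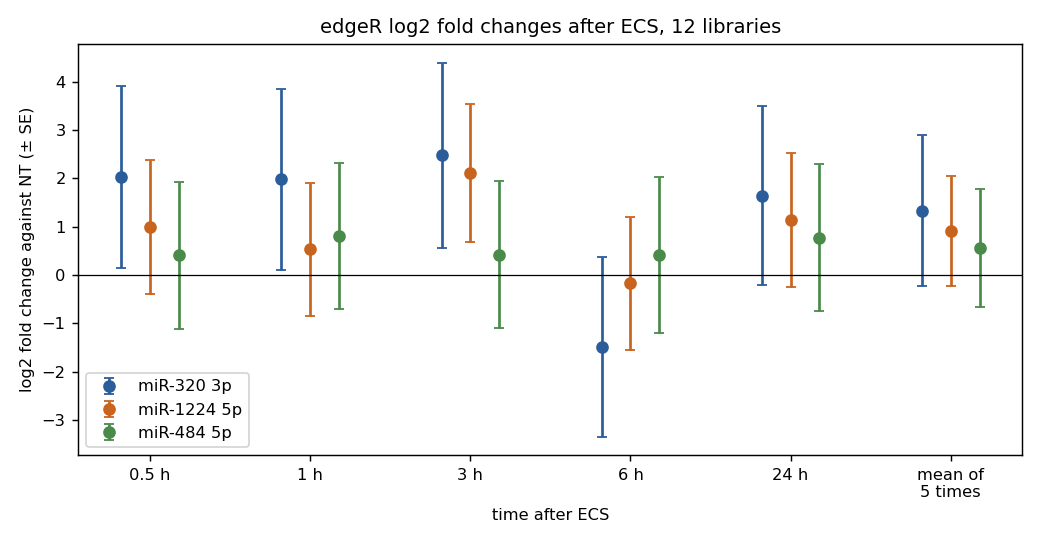
The log2 fold change against NT (vertical axis, edgeR with TMM) of the 3 member arms that passed the filter, at each time after ECS and for the mean of the 5 times (horizontal axis). Points are estimates from all 12 libraries and bars are 1 SE, which reaches 1.92 for miR-320 3p at 3 h, and no point passed the test.

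Within each time course the levels were set against the 1 untreated library. miR-320 3p was above NT in 4 of 5 ECS libraries of each time course, with a ratio of the ECS median to NT of 1.94 in time course 1 and 4.16 in time course 2. In time course 1 the library below NT was 3h-1, which lay above NT once TMM scaling was applied (88.5 against 79.8 CPM). Relative to accepted reads, 6h-1 also lay below NT. In time course 2 the library below NT was 6h-2 on all 3 scales. miR-1224 5p was above NT in 5 of 5 ECS libraries of time course 1, by 6.87 to 21.4-fold. In time course 2 it was below NT in 5 of 5, at 0.107 to 0.741 of NT. TMM scaling and scaling to accepted reads gave the same 2 directions for miR-1224. So did matching by the first 18 bases, with 8.11 to 21.3-fold in time course 1, but in time course 2 the level was then 0.104 to 0.990 of NT, the highest ratio being that of 0.5h-2. The first of these rests on NT-1, the library with the short reads, and whether its short reads bear on the level of miR-1224 was not tested.

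The first bases of the mirtron reads were set against the splice donor of the host intron. For miR-1224, 16854 of 16870 reads (99.9%) began at the first base of the intron, and the share was 99.8 to 100% in each of the 12 libraries. Of the 16 others, 14 began 1 base further in. For miR-877 5p, 38 of 39 reads began at the first base of the intron. The hairpins of miR-1224 and miR-877 begin at that same base, so a read that began before it could not be counted. This also bears on the rank of miR-1224 5p given below. The only read of miR-702 began at position 10 of the annotated hairpin, which is the first base of the Plod3 intron. Among all 235 arms with at least 1000 counts, the median share of the leading start was 98.2%, and miR-1224 5p held rank 218 of 235 from the lowest. miR-484 5p began at position 5 of its hairpin in 136 of 140 reads (97.1%) and at position 7 in the other 4.

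The start of miR-320 3p was less fixed than that of miR-1224 5p, and the reason was not tested. Over all reads 85.2% began at position 48 of the hairpin, 9.12% at position 49 and 4.97% at position 50, and the leading share held rank 53 of the 235 arms from the lowest. Of these reads 58572 of 61437 came from time course 2, where the pooled share of position 48 was 87.0% (rank 59 of 234 arms), against 48.9% (rank 15 of 231) over the 2865 reads of time course 1. The ranks within a time course cover the arms with at least 100 reads there. Each shift moves the seed by 1 base, so the 3 groups of reads carry different seeds. Their leading tags were as follows, with the seed in capitals.
miR-320 3p from position 48, 27302 counts: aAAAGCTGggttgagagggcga
miR-320 3p from position 49, 3544 counts: aAAGCTGGgttgagagggcga
miR-320 3p from position 50, 1611 counts: aAGCTGGGttgagagggcga
The 3 tags end at the same base. The seed of the last is that of mmu-miR-7688-5p, and the seed of the tag from position 49 is found in no other RefSeq miRNA.

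The share of miR-320 3p reads that began at position 48 was lower in time course 1 than in time course 2. It was 68.8% in NT-1, 46.9% in 0.5h-1, 63.4% in 1h-1, 69.0% in 3h-1, 52.9% in 6h-1 and 42.8% in 24h-1. It was 65.96% in NT-2, 91.7% in 0.5h-2, 87.3% in 1h-2, 89.8% in 3h-2, 79.2% in 6h-2 and 82.8% in 24h-2. The 5 ECS libraries of time course 2 lay above the other 7 libraries, and NT-2 lay within the range of time course 1. Counting error was small beside these gaps in the deep libraries, with 95% Wilson intervals of 64.4 to 67.4% in NT-2 and 91.2 to 92.1% in 0.5h-2, and wide in 6h-1 (41.3 to 64.1%, 70 reads). The share from position 50 was 6.25% in NT-1 and 15.04 to 28.3% in the ECS libraries of that time course, and 12.4% in NT-2 and 2.18 to 7.08% in those of time course 2.

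**Figure D3:**
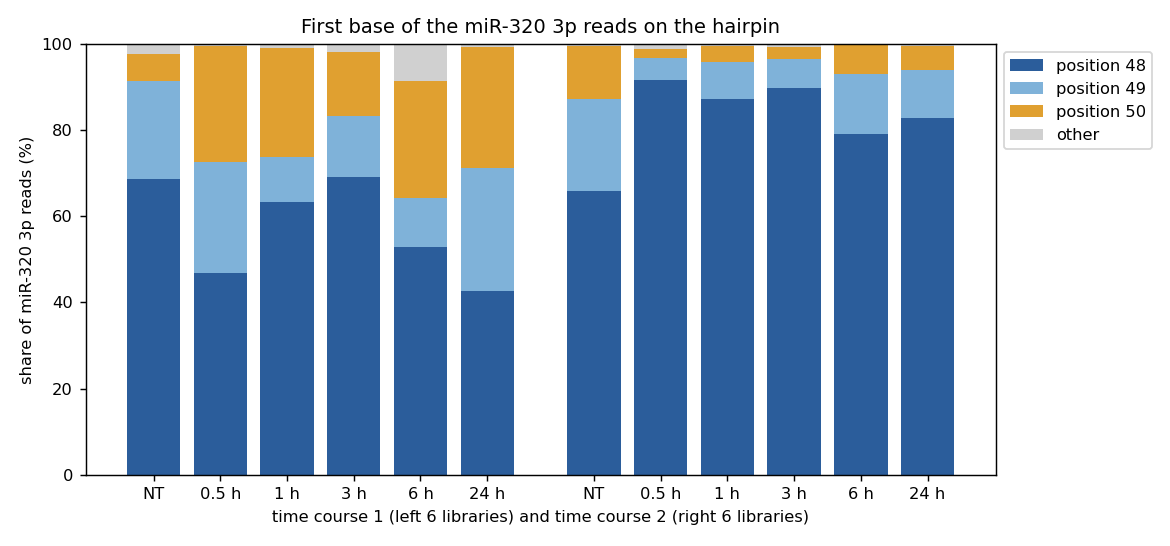
Share of the miR-320 3p reads (vertical axis, percent) by the hairpin position of their first base, in the 6 libraries of time course 1 (left) and the 6 of time course 2 (right). Position 48 takes 42.8 to 69.0% of the reads in time course 1, and 65.96 to 91.7% in time course 2.

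After ECS the mean share from position 48 lay below NT in time course 1 and above NT in time course 2. It was 55.0% ± 11.0 (SD, n = 5) against 68.8% in NT-1, lower in 4 of 5 libraries, and 86.2% ± 5.12 (SD, n = 5) against 65.96% in NT-2, higher in 5 of 5. The mean difference of 3.21 percentage points had p = 0.778 in a two-sided exact permutation test over the 36 choices of 1 library per time course as untreated (adjusted p = 0.778 over 2 tests), and the smallest p this design allows is 0.0278. Without NT-1 the difference is 20.2 points and without NT-2 it is -13.8 points. For the start of miR-1224 5p the mean difference was -0.021 percentage points, with an exact permutation p of 0.75 and the same adjusted p of 0.778.

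The miR-1224 reads shared their first base but not their last, and their length differed between the libraries. In time course 2, reads of 20 nt made up 97.4 to 98.7% of miR-1224 5p in each of the 6 libraries. In time course 1 their share was 60.7% at 0.5 h and 61.6% at 24 h, and 6.80 to 23.4% at 1, 3 and 6 h, where reads of 19 nt led with 70.9% at 1 h, 92.3% at 3 h and 74.2% at 6 h. In NT-1 55.0% of the reads were 18 nt long. The 2 lengths differ by the last base only.
miR-1224 5p of 20 nt, 10274 counts: gTGAGGACtggggaggtgga
miR-1224 5p of 19 nt, 6010 counts: gTGAGGACtggggaggtgg
Both carry the same seed. No library of time course 1 reached the share of 20-nt reads of any library of time course 2.

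**Figure D4:**
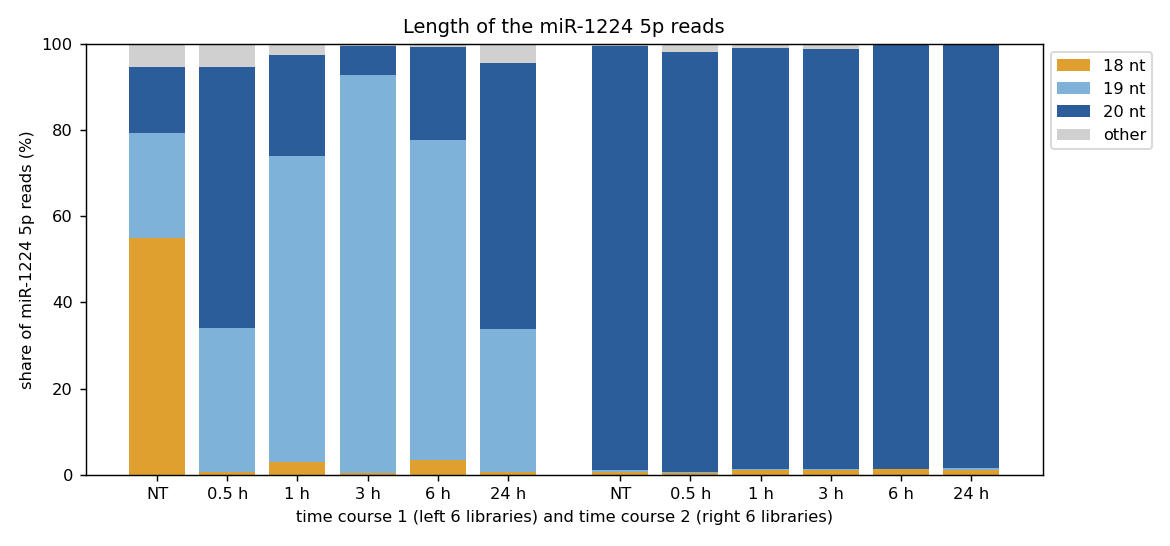
Share of the miR-1224 5p reads (vertical axis, percent) by read length in the 6 libraries of time course 1 (left) and the 6 of time course 2 (right). Reads of 20 nt take 97.4 to 98.7% in time course 2, whereas 19 nt leads at 1, 3 and 6 h of time course 1 and 18 nt in NT-1.

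For miR-320 3p the length varied within both time courses. Reads of 22 nt were the largest class in 0.5h-2 (50.3%), 1h-2 (52.3%), 3h-2 (49.7%) and 24h-2 (45.0%), and reads of 20 nt in NT-2 (43.8%) and 6h-2 (40.7%). In time course 1 reads of 20 nt led at 0.5 h (56.2%), 1 h (38.2%), 3 h (31.9%) and 24 h (57.2%), reads of 19 nt at 6 h (51.4%) and reads of 22 nt in NT-1 (28.9%, close to the 28.1% of 20 nt). The read length also differed over all miRNAs between the time courses, as given above for the reads of 18 to 19 nt, and its part in these shares was not tested.

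Reads whose first 18 bases match a hairpin but whose 3′ end does not are missed by the exact match, and they were a large part of the reads of miR-1224 and miR-877. By the first 18 bases miR-1224 5p had 33445 reads, and 49.6% of them had a 3′ end that the hairpin does not hold. Among the 237 arms with at least 1000 reads whose first 18 bases match that arm only, the median share was 18.6%, and miR-1224 5p held rank 9 from the highest. miR-1981 5p, the other abundant arm that begins at a splice donor, had 18.1% of 30021 reads (rank 124). For miR-320 3p the share was 25.7% of 82698 reads (rank 64), for miR-484 5p 17.2% of 169, for miR-877 5p 55.2% of 87 and for miR-877 3p 79.2% of 24. Of the miR-877 3p reads, 19 of 24 thus had an unmatched end. The leading such tag, with 5 counts, was the annotated mature sequence followed by 1 base that does not match the hairpin, shown here in capitals.
miR-877 3p with an added base: tgtcctcttctccctcctcccaT

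The unmatched share of miR-1224 5p was 30.4 to 50.6% in time course 1 and 49.03 to 66.8% in time course 2, against 11.0 to 21.9% for all miRNA reads of the 12 libraries. It was above that of all miRNA reads in 12 of 12 libraries. The miR-320 3p share was 17.1 to 34.6% in time course 1 and 17.8 to 29.1% in time course 2, and it was above that of all miRNA reads in 11 libraries and just below it in 24h-1, at 17.1% against 17.2%. A single unmatched T was the most frequent unmatched end of miR-320 3p, with 10.4% of its reads. miR-1224 5p had a single unmatched T in 10.8%, a single G in 10.02% and a single A in 8.55% of its reads. The single A took 3.61% in time course 1 and 12.9% in time course 2, and the single T 13.6% and 8.42%. Ends that began with TCG, as the 3′ adapter of the early Illumina small RNA kits does, made up 5.33% of the miR-320 3p and 1.72% of the miR-1224 5p reads. A single T can also be the first base of that adapter. Sequencing errors, remnants of the adapter and bases added in the cell were not separated.

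**Figure D5:**
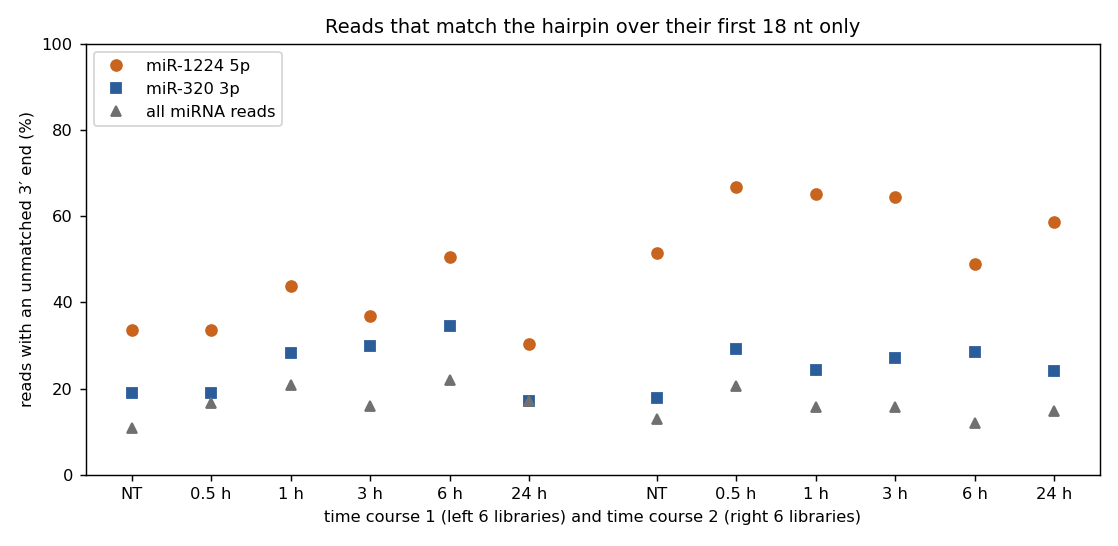
Percent of the reads matched by their first 18 bases whose 3′ end does not match the hairpin (vertical axis), for miR-1224 5p, miR-320 3p and all miRNA reads, in the 6 libraries of time course 1 (left) and the 6 of time course 2 (right). miR-1224 5p lies between 30.4 and 66.8% and all miRNA reads between 11.0 and 21.9%.

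The 3 mirtrons were set among all hairpins that the annotation places at an intron's ends. With both hairpin ends within 20 nt of the ends of 1 intron there were 45 miRNA names, 26 with at least 1 read and 10 with at least 10. The one with the most reads, let-7i (515168 reads), lies 11 and 20 nt inside its intron and enters by the width of this rule only. In 20 of the 45 the hairpin has exactly the ends of the intron, miR-1224 and miR-877 among them, and 11 of the 20 had reads. Over these, 41490 of 41579 5′-arm reads (99.8%) began at the first base of the intron. Reads that began before the intron or ended past it could not be counted, since these hairpins have exactly its ends. miR-1981, whose hairpin is intron 5 of Marc2, had 24586 of these reads and miR-1224 16870, so that the share is mainly theirs. Of the 123 5′-arm reads of the other names 66 (53.7%) began at the first base, with 38 of 39 in miR-877, 15 of 41 in miR-7080 and 0 of 27 in miR-3102. The 3′ arms had 415 reads, of which 46 ended at the last base of the intron and 234 ended 1 base short of it.

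miR-1981 was the only other intron hairpin of this kind at a level like that of miR-1224. Its 5′ arm began at the first intron base in 99.9% of reads and stood at 95.5 to 742 RPM in time course 1 and 288 to 1537 in time course 2. Its log2 difference of time course 2 over time course 1 was 2.35 (SE 0.60), against -1.40 (SE 0.76) for miR-1224 5p. The 3′ arm of miR-1981 had 302 reads, 63.6% of them ending 1 base short of the intron's end, whereas miR-1224 had no 3′ read, although RefSeq lists a mature 3′ arm for it. Of the others, miR-3102 had 110 reads, 83 from its 3′ arm, and miR-7080 had 54. miR-5132, 11 nt from its intron's end, had 25 reads. After ECS edgeR called 0 of the 6 arms of these 45 names that passed the filter, in either direction and at any time, against 0% of all arms. Of these 6 arms, 4 came from hairpins with exactly the ends of an intron, and the others from let-7i.

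The arms whose levels ran most like those of miR-320 3p over the 12 libraries, by Pearson's r of log2 CPM, were miR-490 3p (0.987), miR-433 3p (0.965), miR-185 5p (0.965), miR-532 5p (0.959) and miR-328 3p (0.959). With the mean of each time course taken out, r was 0.966 for miR-490 3p and 0.895 to 0.944 for the other four. miR-490 3p was thus the first of 468 arms on either measure. For miR-484 5p the 5 arms were miR-3083 5p (0.980), miR-673 5p (0.933), miR-3078 5p (0.929), miR-344b 3p (0.908) and miR-376b 5p (0.896). These are descriptions over n = 12 libraries that share their totals and their batches, and the values for miR-484 rest on 140 reads.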

How the data were processed

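Small RNA of mouse hippocampus was sequenced in 12 libraries, 2 per group. The authors cloned size-selected RNA with the Illumina small RNA kit, sequenced it on a Genome Analyzer IIx, trimmed the 3′ adapter and processed the reads with their miR-Intess pipeline. The deposited files list each distinct tag with its count, as raw counts that were not normalized and with reads of no miRNA still included. Versions of the pipeline are not given in the sources used here.

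Tags of 18 to 34 nt were matched to the GENCODE M21 hairpins (GRCm38) over their full length. The count of a tag that matched several arms was divided equally among them. Levels (RPM) are reads per 1000000 miRNA reads of the library, with 95% Wilson intervals, and 439336 to 4282006 miRNA reads per library set their precision. The filter kept 469 arms, those that reached 10 counts in 2 or more libraries, and they were tested with edgeR 4.0.16 (TMM, quasi-likelihood, Benjamini-Hochberg over all arms) in R 4.3.3, each time and the mean of the 5 times against NT. Start shares were tested by exact permutation of the untreated library within each time course. DESeq2 1.42.0, other scalings, filters and matching rules, the replicate block and leaving out each library were the alternatives. Libraries of the same replicate number deviated together from the group means (mean r = 0.519 over 15 pairs of groups, 0.308 to 0.786), and the study treats that number as a batch.

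The members and lists were chosen with earlier results of these data known. All members and each arm with at least 1 count are named. Of the intron hairpins the 5 other names with the most counts are named, and for likeness the 5 arms with the highest r. Whether a tag also occurs elsewhere in the genome was not examined.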

Additional observations from a re-analysis of the deposited data

Results flagged for a closer look

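The level of miR-1224 5p moved in opposite directions after ECS. Relative to NT of the same time course it changed by a mean of 1173 RPM in time course 1 (higher in 5 of 5 libraries) and by -318 in time course 2 (lower in 5 of 5). The difference was not tested, since each time course had 1 untreated library. In time course 1 the direction rests on NT-1, where 51.4% of the miRNA reads had 18 to 19 nt. Opposite directions were looked for in 12 measures, and how often chance gives them was not worked out.

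The mean length of the miR-320 3p reads changed by -0.481 nt after ECS in time course 1 (shorter in 5 of 5 libraries) and by 0.428 nt in time course 2 (longer in 5 of 5), and the share from position 50 by 18.3 percentage points in time course 1 (higher in 5 of 5) and by -8.07 in time course 2 (lower in 5 of 5). Neither difference was tested, and both directions in time course 1 rest on NT-1.

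Within a time course of 6 libraries, 2 values lay far from the others. The mean length of the miR-320 3p reads was 19.3 nt in 6h-1, from 70 reads, against 20.3 to 20.8 nt in the other libraries of time course 1. That of miR-1224 5p was 20.02 nt in 0.5h-2 against 19.97 to 19.99 nt in the others of time course 2. Chance flags about 1 in 20 such groups, and 24 were examined.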

How the results depend on the processing

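With 2 mice per group, 1 untreated library in each time course and 44 and 140 reads behind miR-877 and miR-484, these libraries can show large changes only, and levels of miRNAs in different libraries also carry the batch. In all 125 alternatives of the 6 comparisons after ECS the number of member arms called remained 0, also with the replicate block, where 0 of 3 were called in each comparison. In that paired fit the mean log2 fold change of the 5 times was 1.54 (SE 0.88) for miR-320 3p, 0.04 (SE 0.96) for miR-1224 5p and 0.87 (SE 1.01) for miR-484 5p. The block changed no call. Of 374 alternative fold changes 352 kept their sign, and the lowest adjusted p was 0.397 (DESeq2 with the block, miR-320 3p at 0.5 h), an alternative chosen after seeing the data. Of all arms, DESeq2 with the block called 2 at 0.5 h, 5 at 3 h, 3 at 6 h and 1 in the mean, edgeR with no filter on low counts called 1 at 3 h and 5 in the mean, and edgeR without NT-2 called 1 in the mean.

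The log2 difference between the time courses was 2.87 to 3.95 for miR-320 3p, -2.005 to -1.09 for miR-1224 5p and 0.77 to 1.59 for miR-484 5p when each library was left out, and 2.88 to 4.09, -2.01 to -0.70 and 0.64 to 1.85 under the other 6 alternatives. For miR-1224 5p the smallest of these differences were -0.70 with scaling to accepted reads and -0.78 with matching by the first 18 bases. The difference in the start of miR-320 3p after ECS ranged from -13.8 (without NT-2) to 20.2 percentage points (without NT-1), so its direction depends on which untreated library is kept. With unpaired choices of 2 untreated libraries its permutation p was 0.848. With both ends within 10 nt of the intron's ends the list of intron hairpins fell from 45 to 27 names, and within 5 nt to 21. Of the 5 arms most like miR-320 3p, 1 was kept by Spearman's rho and 4 by the deviations from the mean of the time course. Of those most like miR-484 5p, 2 were kept by Spearman's rho and 2 by these deviations.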
